A study of Mus musculus with 46 samples.

Results

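The western diet comparison set 4 livers of mice with a stellate cell knockout of Plvap (knockout A to D) against 5 livers of littermate controls (control A to E). It held 9 of the 46 samples of the series, and the members were taken by their labels for diet and genotype, with no measured value entering the choice. All 9 mice were male C57BL/6JBomTac, were fed western diet together with fructose in the drinking water for 6 weeks, and were fasted overnight for 12 h before the liver was removed and snap frozen. The genotype field of both groups names the Plvaptm1.1Salm allele with the transgene Tg(Lrat-cre)1Rshw and the background B6.126(Cg), and a second field separates controls from knockouts, so the labels do not say which of these alleles a littermate control carried. Age, litter and cage are not given in the sources used here. The other experiments on this line that stand beside the results were 6 weeks of high-fat diet with plain water and a 12 h fast (5 control and 5 knockout livers), chow with a 12 h fast (6 and 5), and chow with a 10 h fast followed by 2 h of refeeding (4 and 4).

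Plvap encodes the protein that builds the thin diaphragms across caveolae and across the pores of fenestrated endothelium, and it is best known as an endothelial gene. Hepatic stellate cells lie between the sinusoidal endothelium and the hepatocytes, store vitamin A as retinyl esters made by the acyltransferase Lrat, and lay down matrix when they are activated. The Cre transgene uses the Lrat promoter, so the recombination is directed at stellate cells, while most RNA of a liver homogenate comes from hepatocytes. In such bulk samples, fewer cells of a type and less RNA per cell cannot be told apart.

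Expression is given as CPM, the counts of a gene relative to the library size, scaled with the trimmed mean of M-values, and a gene is called at an adjusted p under 0.05 in edgeR's quasi-likelihood test with Benjamini-Hochberg adjustment over all genes tested. Log2 fold changes are knockout minus control, with their standard error. The 9 libraries held between 11095895 and 17682011 counts. Control A stood apart from the other 8 libraries. Of 10026 genes above 5 CPM in some library, 555 differed more than 2-fold in control A from the median of the others, against 60 to 195 genes in the other libraries. Its score on the first principal component, which carried 31.4% of the variance of the 1000 most variable genes, was 31.6, while the others lay between -13.1 and 5.91. Named after its values were seen, the proliferation marker Mki67 stood at 10.3 CPM there and at 0.884 to 7.11 in the others, the macrophage elastase Mmp12 at 19.4 against at most 2.698, and Cyp21a1, an adrenal steroid hydroxylase, at 36.7 against at most 0.448. Counts for gene lists are therefore given with and without control A. Over all genes, 3.81% were higher and 5.99% lower at an unadjusted p under 0.05 with all controls, and 4.24% and 4.78% without control A.

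**Figure D1:**
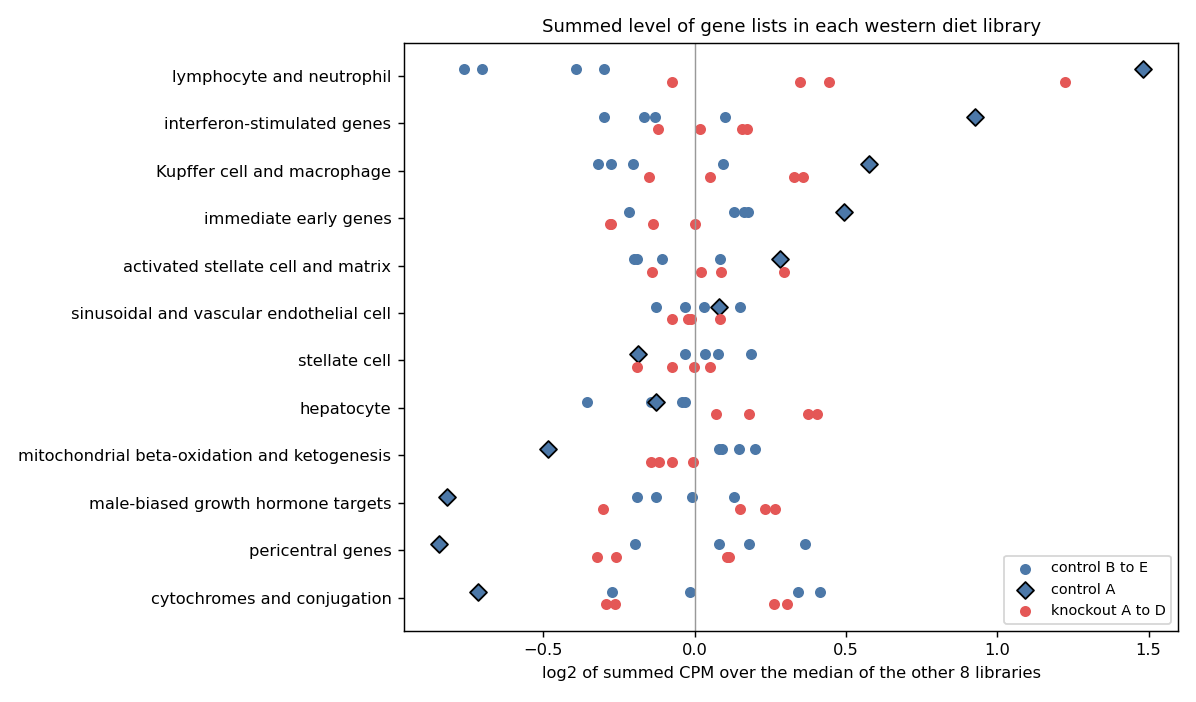
Summed CPM of 12 gene lists in each western diet library, as log2 of its ratio to the median of the other 8 libraries (x axis); blue marks are controls, with control A as a diamond, and red marks are knockouts. Control A lies at the outer edge for the interferon, macrophage and lymphocyte lists on the high side and for the growth hormone, pericentral and cytochrome lists on the low side, and in the hepatocyte list the 4 knockouts lie above all 5 controls. The hepatocyte sum includes albumin (Alb), the only 1 of the 11 tested hepatocyte genes that separated the groups by itself. Over all genes, 1.46% did so on the higher side.

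Plvap itself, the targeted gene (ENSMUSG00000034845, chromosome 8, 71950409 to 71964396 in GRCm39), checked the labels. It stood at 40.9, 26.7, 30.5, 21.1 and 28.5 CPM in controls A to E and at 5.38, 4.89, 6.23 and 5.69 CPM in knockouts A to D. Every knockout library lay below every control, and control A was the highest. The mean fell to 18.8% of the control level, a log2 fold change of -2.41 ± 0.22 (adjusted p 5.08e-06). Permuting the group labels over the libraries gave an exact, two-sided p of 0.00794 on log2(CPM + 0.5), the smallest possible here. These p-values measure the spread between these samples, which may in part be technical. The fall held without any single library, with adjusted p between 2.71e-06 and 0.000114. None of the other 8 tested genes of caveolae and their diaphragms passed. Cav2, a caveolin partner, was at 3.66 to 5.46 CPM in controls and 5.06 to 9.10 CPM in knockouts (0.58 ± 0.25, unadjusted p 0.0303), and Cav1, the caveolar coat protein, was at 1.13 to 4.90 and 2.53 to 4.76 CPM (0.44 ± 0.33, unadjusted p 0.191). The highest control for Cav1 was control A, and without it the fold change was 0.81 ± 0.30 (unadjusted p 0.013, adjusted p 0.451). In the other experiments Cav1 went the other way in value. Its log2 fold change was -0.83 ± 0.31 on high-fat diet, -0.47 ± 0.23 on chow fasted and -0.52 ± 0.29 on chow refed.

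**Figure D2:**
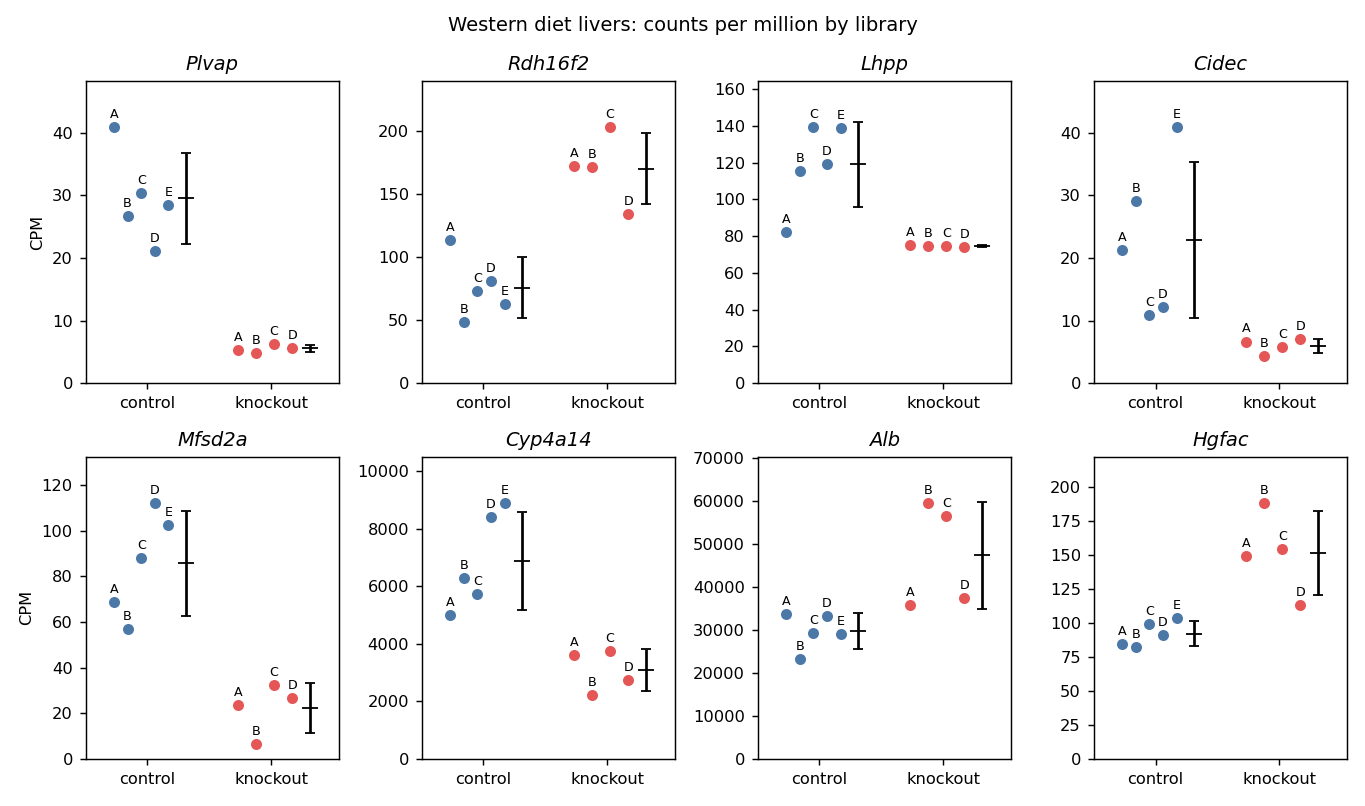
CPM of 8 genes in each western diet library (y axis, from 0; letters are library names), with mean and SD at the right of each group. Plvap, Lhpp, Cidec, Mfsd2a and Cyp4a14 are lower in all 4 knockouts than in all 5 controls, and Rdh16f2, Alb and Hgfac are higher.

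The only other called gene was Rdh16f2, a member of a cluster of short-chain dehydrogenases that act on retinol and steroids. Together, 2 of 13533 tested genes passed (0.0148%), 1 higher and 1 lower. DESeq2 called 21 genes (0.123%) and limma-voom with quality weights 15 (0.111%), Plvap and Rdh16f2 among both. Rdh16f2 (ENSMUSG00000074639, chromosome 10, 127702343 to 127713186) stood at 113, 48.9, 73.3, 81.2 and 62.4 CPM in controls A to E and at 172, 171, 203 and 134 CPM in knockouts A to D. The groups did not overlap, and the nearest libraries were control A and knockout D. The mean rose 2.24-fold (log2 fold change 1.16 ± 0.19, adjusted p 0.0413), and the same exact permutation gave p = 0.0159. Rdh16f2 had been singled out by earlier results of these data, so this p is not independent of its choice. Its fold change lay between 1.049 and 1.354 when any 1 library was left out, but the call was lost in 7 of these 9 fits, with adjusted p up to 0.307, and held without control A (1.35 ± 0.17, adjusted p 0.000453) and without knockout D. Its log2 fold changes in the other experiments were 1.17 ± 0.19 on high-fat diet (adjusted p 0.0125), 1.23 ± 0.14 on chow fasted (0.000582) and 1.01 ± 0.15 on chow refed (0.0656).

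Its neighbour and paralog Rdh16 (chromosome 10, 127637021 to 127682434) went the other way in value. It was at 71.7, 79.3, 106, 128 and 110 CPM in controls and 58.5, 99.6, 68.03 and 47.8 CPM in knockouts, with overlap between the groups (-0.53 ± 0.18, unadjusted p 0.00886, adjusted p 0.374). Of the further cluster members, Rdh7 (0.09), Rdh9 (0.11) and Hsd17b6 (0.11) had log2 fold changes near 0, and Rdh16f1 and Rdh1 were too low to test. In the GENCODE vM21 transcripts, 10.0% of the 50-base words of Rdh16f2 also occur in another gene and 14.0% of those of Rdh16, in both cases most often Rdh9, so a limited share of reads could be placed on either paralog. The promoter windows of the neighbours, from 250 bases before to 50 after the start in RefSeq on GRCm38.p6, are shown because the 2 genes had log2 fold changes of opposite sign. Capitals mark the nuclear receptor core word AGGTCA or its reverse complement, searched on both strands.
Rdh16f2, chr10:127866226-127866525, plus strand: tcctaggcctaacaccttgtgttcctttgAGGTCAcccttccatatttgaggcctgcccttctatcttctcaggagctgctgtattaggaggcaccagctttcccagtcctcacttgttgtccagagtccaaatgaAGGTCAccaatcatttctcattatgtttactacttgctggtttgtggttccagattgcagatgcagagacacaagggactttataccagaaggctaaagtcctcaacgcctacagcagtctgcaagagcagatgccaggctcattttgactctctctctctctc
Rdh16, chr10:127800903-127801202, plus strand: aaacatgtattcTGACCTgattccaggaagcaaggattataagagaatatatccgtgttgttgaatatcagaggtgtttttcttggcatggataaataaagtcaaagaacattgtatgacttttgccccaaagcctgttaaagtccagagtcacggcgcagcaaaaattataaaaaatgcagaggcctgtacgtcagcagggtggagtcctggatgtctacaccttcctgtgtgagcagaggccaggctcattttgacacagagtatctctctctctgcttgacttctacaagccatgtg
The word occurs 2 times in the Rdh16f2 window and 1 time in the Rdh16 window, and 16.3% of 32851 windows of this length hold it. A match is a run of letters and no measured binding site.

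The list of retinoid handling, 35 tested in all, gave 2 members higher and 1 lower at an unadjusted p under 0.05, against 3.81% higher and 5.99% lower over all genes tested. Without control A, 3 of 34 were higher and 3 lower, and 2 were called. Besides Rdh16f2 and Rdh16, the third was Rdh10, a retinol dehydrogenase of retinoic acid synthesis, at 20.6 to 32.8 CPM in controls and 28.9 to 33.7 CPM in knockouts (0.32 ± 0.14, unadjusted p 0.031). Lrat, which makes the stored esters and whose promoter drives the transgene, was at 9.81 to 13.05 CPM in controls and 8.61 to 13.1 CPM in knockouts (-0.12 ± 0.13, adjusted p 0.797).

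The summed level of the stellate cell markers overlapped between the groups. Of 28 listed markers 27 could be tested, 1 was higher and 4 lower at an unadjusted p under 0.05 (3.81% and 5.99% of all genes), none was called, and the median log2 fold change was -0.17 against -0.02 over all genes. Without control A, 1 was higher and 3 lower, and 1 was called. The sum ran from 1259 to 1606 CPM in controls and from 1258 to 1465 CPM in knockouts. Des, an intermediate filament protein of these cells, differed by 0.03 ± 0.18 and Reln, a secreted glycoprotein that marks them, by -0.21 ± 0.11 on the log2 scale, while Gfap was at or below 0.402 CPM in every library and was not tested. The member with the smallest p was Adamtsl2, a matrix glycoprotein that binds latent transforming growth factor beta binding protein. It stood at 10.7, 4.78, 6.81, 4.24 and 4.53 CPM in controls and 2.25, 2.09, 5.46 and 2.53 CPM in knockouts (-1.01 ± 0.31, unadjusted p 0.00426). Knockout C lay among the controls, and without control A the fold change was -0.71. Ngfr, a neurotrophin receptor (-0.88), Vipr1, a receptor for vasoactive intestinal peptide (-0.38 ± 0.15), and Pth1r, a parathyroid hormone receptor (-0.56 ± 0.23), were also on the lower side, and the chemokine Cxcl12 on the higher (0.32 ± 0.15).

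The matrix and activation list looked different with and without control A. With all controls, 4 of 40 tested members were lower and none higher at an unadjusted p under 0.05 (5.99% and 3.81% of all genes), with a median of -0.24. Without control A, 1 member was higher and none lower, and the median was 0.02. Bgn, the small proteoglycan biglycan, was at 111 CPM in control A, 41.7 to 54.8 CPM in the other controls and 32.5 to 46.3 CPM in the knockouts. Col1a1, the main chain of fibrillar collagen, was at 22.1 CPM in control A, 2.30 to 4.79 CPM in the other controls and 2.35 to 4.89 CPM in the knockouts. Without control A no difference in Col1a1 was detectable (-0.11, adjusted p 0.9621).

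With the 2 called genes included, 515 genes were higher and 810 lower at an unadjusted p under 0.05, and the groups did not overlap for 197 higher (1.46%) and 226 lower genes (1.67%). Among genes with a mean of at least 1 CPM in the higher group, those with the smallest p on the higher side, besides Rdh16f2, were Arhgap26, Ctbs, Hgfac, Ednrb, Aph1b, Cdh4, Cpd, Asb4, Lyrm9, Alb, Atp8b1, Tlcd2, Hsbp1l1 and Stxbp6, with log2 fold changes from 0.39 (Atp8b1) to 1.496 (Cdh4) and adjusted p from 0.163 to 0.308. Hgfac, the secreted protease that activates hepatocyte growth factor, was at 84.4, 82.0, 99.4, 91.3 and 103 CPM in controls and 149, 188, 154 and 113 CPM in knockouts (0.72 ± 0.16, adjusted p 0.163). Ctbs, a lysosomal chitobiase, was at 14.1 to 17.8 CPM in controls and 27.7, 26.8, 22.7 and 19.1 CPM in knockouts (0.58 ± 0.12, adjusted p 0.163). Both separated the groups in full, and for both knockout D was the closest to the controls. Ednrb, the endothelin B receptor, was at 8.65 to 18.1 CPM in controls and 18.6 to 33.2 CPM in knockouts (0.83 ± 0.19, adjusted p 0.205). Arhgap26, a GTPase activating protein, was at 8.78 to 15.8 and 19.1 to 31.3 CPM (0.88 ± 0.18, adjusted p 0.163), and in both genes knockout B was the high value.

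On the lower side, besides Plvap, the genes with the smallest p were Cidec, Mlxip, Fam53b, Cyp4a12b, Gpat4, Psmd9, Lhpp, Arhgap23, Gsr, Ntrk2, Psmd4, Ttyh1, Epop and Samd4b, with log2 fold changes from -0.35 (Psmd4) to -2.62 (Ntrk2) and adjusted p from 0.114 to 0.236. Lhpp, a histidine and pyrophosphate phosphatase, was at 82.1, 116, 139, 119 and 139 CPM in controls and at 75.0, 74.5, 74.4 and 74.0 CPM in knockouts (-0.68 ± 0.15, adjusted p 0.163). The 4 knockouts lay close together and below every control, with control A the lowest control, and without control A Lhpp passed (-0.78 ± 0.13, adjusted p 0.0182), among 5 called genes of 13403 (0.0373%). Gsr, glutathione reductase, was at 74.0, 59.6, 56.2, 57.7 and 56.1 CPM in controls and 42.2, 39.1, 45.2 and 48.2 CPM in knockouts (-0.48 ± 0.11, adjusted p 0.168). Gstk1, a mitochondrial and peroxisomal glutathione transferase, also separated the groups, at 104 to 146 CPM in controls and 88.4 to 98.7 CPM in knockouts (-0.40 ± 0.11, adjusted p 0.308). The glutathione and NRF2 list of 37 tested genes held 4 lower and 2 higher members at an unadjusted p under 0.05, shares of 10.8% and 5.41% against 5.99% and 3.81% of all genes, and 3 and 2 without control A. Gclm, which helps to make glutathione, was on the higher side (0.28 ± 0.11), as was the synthetase Gss (0.23).

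Several genes of lipid handling lay on the lower side. Cidec, the protein that fuses lipid droplets, was at 21.3, 29.1, 10.8, 12.2 and 40.9 CPM in controls and 6.65, 4.37, 5.72 and 7.01 CPM in knockouts. All knockouts lay below all controls, and the controls spread far more than the knockouts. The mean was 25.96% of the control level (-1.95 ± 0.35), with an adjusted p of 0.114 that did not pass. It passed without control C (adjusted p 0.0161) or without control D (0.0402), and the highest value without any 1 library was 0.457. DESeq2 called Cidec (adjusted p 1.85e-05), while limma-voom with quality weights did not. Of the 31 tested lipid droplet genes, 6 were lower and none higher at an unadjusted p under 0.05 (5.99% and 3.81% of all genes), with a median of -0.24 and with 26 of 31 fold changes below 0. Without control A, 8 were lower and none higher. The 6 were Cidec, Gpat3 (-0.82 ± 0.31), which adds the first acyl chain to glycerol phosphate, the phosphatidate phosphatase Lpin2 (-0.53 ± 0.22), the monoacylglycerol lipase Mgll (-0.41 ± 0.17), Mogat1 (-0.82 ± 0.39) and Dgat1 (-0.20 ± 0.10), both acyltransferases of triglyceride synthesis. Gpat4, the microsomal glycerol phosphate acyltransferase, was not on that list and was at 261, 216, 266, 188 and 312 CPM in controls and 188, 130, 160 and 164 CPM in knockouts (-0.63 ± 0.14, adjusted p 0.163), with control D and knockout A level. Plin2, the droplet coat protein, had -0.50 ± 0.25 (unadjusted p 0.0599).

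Targets of PPARA, the receptor that drives fat oxidation in fasting, leaned the same way. Of 37 tested, 34 had fold changes below 0, 9 were lower and none higher at an unadjusted p under 0.05 (5.99% of all genes were lower), and the median was -0.30. Without control A, 17 of the 37 were lower and none higher, against 4.78% of all genes lower, and the median was -0.38. None was called in either fit. Acot2, a mitochondrial acyl-CoA thioesterase, was at 17.2, 17.9, 12.4, 14.0 and 18.2 CPM in controls and 4.60, 6.85, 11.2 and 6.32 CPM in knockouts (-1.13 ± 0.35, unadjusted p 0.00422). Cyp4a14, a fatty acid omega-hydroxylase, was at 5008, 6290, 5747, 8421 and 8898 CPM in controls and 3595, 2221, 3757 and 2757 CPM in knockouts (-1.16 ± 0.43, unadjusted p 0.0151). Neither gene overlapped between the groups.

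Other PPARA targets on the lower side did overlap. Cpt1a and Cpt2, the 2 steps of the carnitine shuttle into mitochondria, had log2 fold changes of -0.39 ± 0.15 and -0.28 ± 0.11. Crat, a carnitine acetyltransferase, had -0.66 ± 0.23, the thioesterase Acot1 -1.15 ± 0.51, the peroxisomal enzyme Ehhadh -0.89 ± 0.40 and the fasting hormone Fgf21 -1.34 ± 0.59. Control A was itself the lowest control for Cpt2 (210 against 275 to 301 CPM) and for Acot1 (112 against 189 to 220 CPM). Of the 50-base words of Acot1, 13.6% also occur in Acot2, and 24.55% of those of Acot2 occur in Acot1. A share of reads could therefore be placed on either gene. Ppara itself had a log2 fold change of 0.01 ± 0.20. The median of the list was -0.47 on chow fasted, -0.26 on chow refed and -0.05 on high-fat diet. For Cpt1a the difference between the western and high-fat effects was -0.60 ± 0.20 (unadjusted p 0.00655, adjusted p 0.297) and for Cidec -1.39 ± 0.47 (unadjusted p 0.00862, adjusted p 0.306), and neither difference passed. A promoter window was found for 28 of the 39 listed PPARA targets, and none held 2 copies of AGGTCA in the same direction with 1 base between them on either strand, a form found in 0.0396% of all windows.

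Fatty acid uptake showed 4 of 20 tested members lower and none higher at an unadjusted p under 0.05, with and without control A (5.99% and 4.78% of all genes lower), and a median of -0.06. Mfsd2a, a carrier of lysophospholipids that is induced by fasting, was at 68.6, 57.1, 88.0, 112 and 103 CPM in controls and 23.5, 6.71, 32.5 and 26.8 CPM in knockouts. The groups did not overlap, and the mean was 26.1% of the control level (-1.94 ± 0.55, adjusted p 0.324). Slc27a1, a fatty acid transporter, was at 15.7 to 26.9 CPM in controls and 13.9 to 16.7 CPM in knockouts (-0.58 ± 0.17, adjusted p 0.321), where control A lay among the knockouts. Slc27a1 lies 0.0733 Mb from the targeted gene Plvap, and whether that position bears on its value was not tested. Slc27a4, a relative of Slc27a1, had -0.37 ± 0.13 and the intestinal type fatty acid binding protein Fabp2 -0.45 ± 0.21. Cyp4a12b, a male-biased arachidonic acid hydroxylase, was at 64.1 to 124 CPM in controls and 30.6 to 45.4 CPM in knockouts (-1.12 ± 0.23, adjusted p 0.163), and 49.4% of its 50-base words also occur in Cyp4a12a.

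Mlxip, also known as MondoA, a glucose-sensing transcription factor, was at 6.96, 8.52, 7.83, 5.57 and 6.32 CPM in controls and 4.79, 3.98, 3.28 and 4.08 CPM in knockouts (-0.81 ± 0.17, adjusted p 0.163). Lepr, the leptin receptor, was at 23.4 to 86.0 CPM in controls and 8.41 to 34.9 CPM in knockouts (-1.32 ± 0.44, unadjusted p 0.00803). Among lipogenic and fructose genes 3 were lower and 2 higher of 35 at an unadjusted p under 0.05, shares of 8.57% and 5.71% against 5.99% and 3.81% of all genes, and 3 and none without control A. Khk, the fructokinase, was higher in value (0.34 ± 0.14), while the means of Srebf1, the lipogenic transcription factor, were 61.3 and 61.2 CPM.

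Of 23 tested genes of bile acid synthesis and transport, 4 were higher and 1 lower at an unadjusted p under 0.05 (3.81% and 5.99% of all genes), and 3 and 1 without control A, with a median of 0.03. The higher ones were Cyp7a1, the bile acid receptor Nr1h4 (0.45 ± 0.15), the racemase Amacr (0.25 ± 0.10) and the muricholic acid enzyme Cyp2c70 (0.43 ± 0.18), and the lower one was Abcb4, the phospholipid exporter of bile (-0.52 ± 0.18). Sterol export genes had 2 higher and 2 lower of 18, with and without control A (3.81% and 5.99% of all genes with it, 4.24% and 4.78% without it).

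Cyp7a1, the rate-limiting enzyme of bile acid synthesis, ranged from 9.94 to 67.8 CPM in controls and from 25.2 to 212 CPM in knockouts (1.51 ± 0.60, unadjusted p 0.0227), where knockout D lay among the controls and the other 3 knockouts lay above them. Abcg5 and Abcg8, which together export sterols into bile, were at 128 to 235 and 91.5 to 162 CPM in controls and at 120 to 149 and 92.7 to 99.9 CPM in knockouts. Their fold changes were -0.52 ± 0.19 and -0.45 ± 0.14 (unadjusted p 0.0136 and 0.00375). On high-fat diet the fold change of Abcg8 was 0.49 ± 0.13, and the difference between the diets was -0.94 ± 0.19 (unadjusted p 5.86e-05, adjusted p 0.132), which did not pass. Sc5d, a desaturase late in cholesterol synthesis, was at 192 to 211 CPM in controls and 237 to 326 CPM in knockouts (0.38 ± 0.11, adjusted p 0.314), with no overlap.

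Apolipoproteins and VLDL assembly genes had none higher and 1 lower of 27 at an unadjusted p under 0.05 (2 and 3 without control A), with 17 fold changes below 0, and IGF axis and hepatokine genes had 2 higher and 1 lower of 29 (3 and 1 without control A). Over all genes the shares were 3.81% higher and 5.99% lower, and 4.24% and 4.78% without control A. Alb, albumin, was at 33649, 23307, 29260, 33302 and 29205 CPM in controls and 35882, 59661, 56575 and 37520 CPM in knockouts (0.67 ± 0.18, adjusted p 0.308). The groups did not overlap, and knockouts B and C were the highest. Of 42 tested complement and coagulation genes, 37 had fold changes above 0, 10 were higher and none lower at an unadjusted p under 0.05 (3.81% of all genes were higher), and the median was 0.21. Without control A the counts were again 10 and none, against 4.24% of all genes higher, with a median of 0.20. None was called. Cfi, the protease complement factor I, was at 448 to 542 CPM in controls and 693, 527, 745 and 670 CPM in knockouts (0.42 ± 0.13, unadjusted p 0.00307). C1s1, a protease of the first complement component, was at 316 to 468 and 482 to 508 CPM (0.31 ± 0.11, unadjusted p 0.0129), and F11, coagulation factor XI, at 19.7 to 34.5 and 27.2 to 51.3 CPM (0.49 ± 0.20). The median of the same list was 0.26 on chow fasted, 0.20 on high-fat diet and 0.27 on chow refed.

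The acute phase list had the high median of 0.44 over 38 tested genes, with 4 higher and none lower at an unadjusted p under 0.05 (3.81% and 5.99% of all genes), with and without control A, but that median rested on knockout A and was 0.02 without it. The summed level, which weighs members by their abundance, was 75150 to 97036 CPM in controls and 102849 to 134480 CPM in knockouts, without overlap. Saa1, a serum amyloid A protein made in inflammation, was at 7406 CPM in knockout A and at 50.9 to 2088 CPM in the other knockouts, and the controls ranged from 59.5 to 2425 CPM. Lcn2, the iron-siderophore binding lipocalin, was at 422.8 CPM in knockout A, 3.13 to 62.4 CPM in the other knockouts and 3.18 to 58.8 CPM in the controls. Saa4, a constitutive relative, separated the groups at 176 to 244 and 244 to 322 CPM (0.41 ± 0.15, unadjusted p 0.0124).

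**Figure D3:**
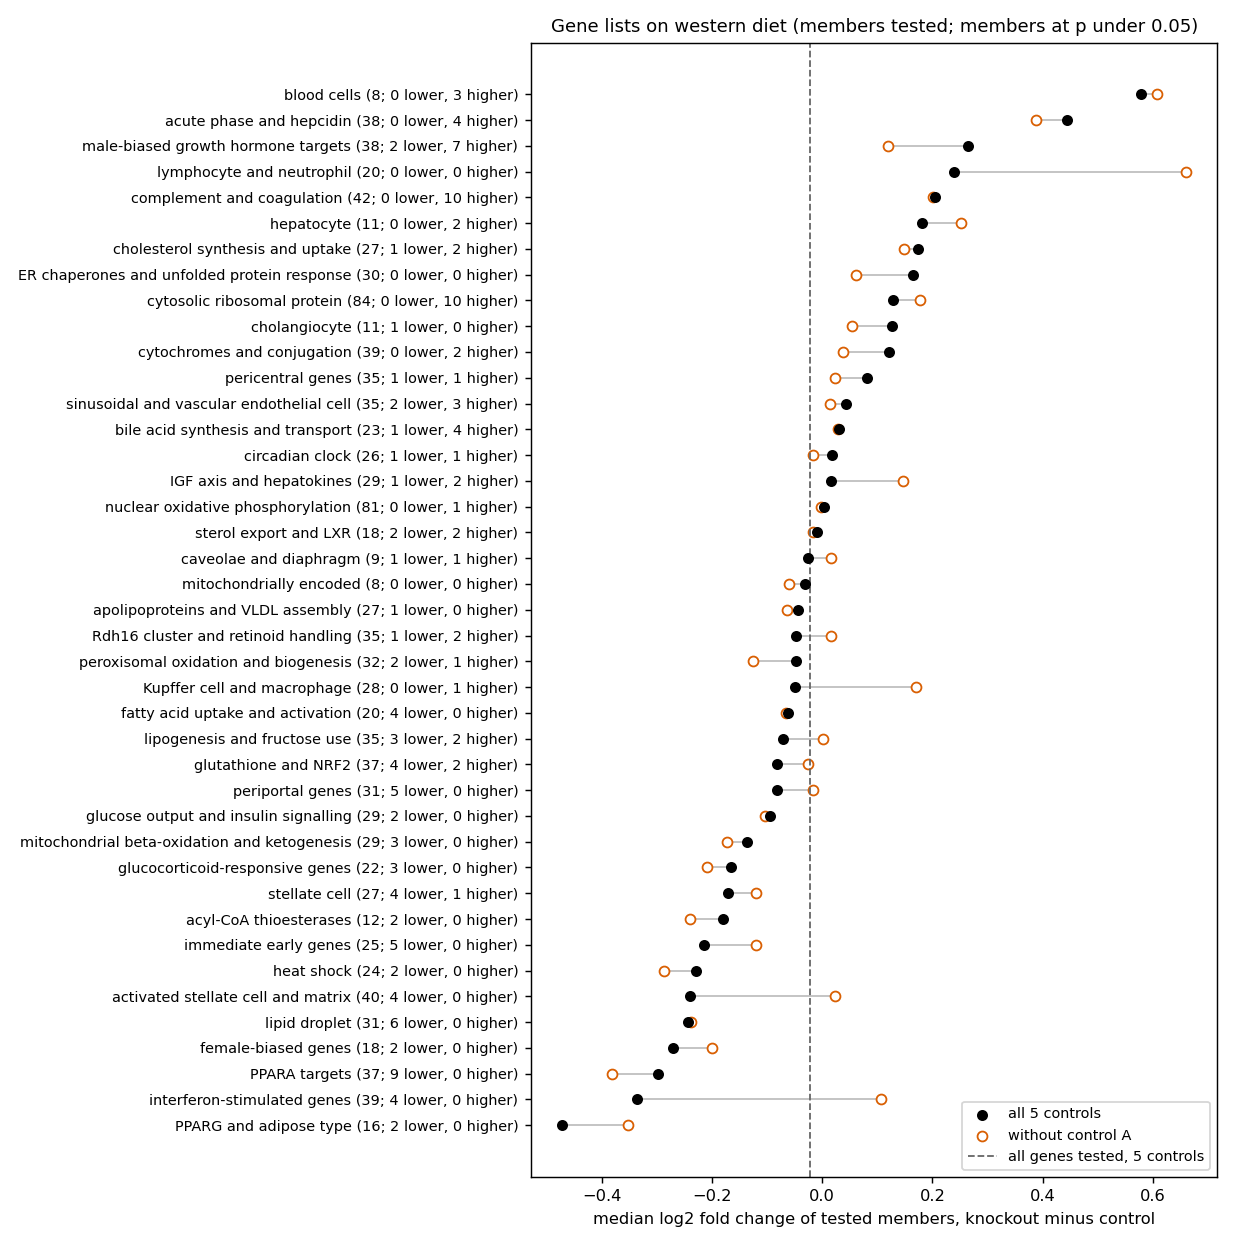
Median log2 fold change of the tested members of each gene list with at least 5 tested members (x axis), with all 5 controls (black) and without control A (open orange); the dashed line is the median of all genes, and the label gives the members tested and those at an unadjusted p under 0.05. The interferon, matrix, macrophage and lymphocyte lists shift most of those shown without control A, while the PPARA, lipid droplet and complement lists keep their side of the dashed line.

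Interferon and immediate early genes leaned on control A. For interferon-stimulated genes, 4 of 39 were lower and none higher at an unadjusted p under 0.05 (5.99% and 3.81% of all genes) with a median of -0.34. Without control A 7 were higher and none lower (4.24% and 4.78% of all genes) with a median of 0.11. Ifi44, an interferon-induced protein, was at 46.5 CPM in control A, 4.66 to 6.36 CPM in the other controls and 3.62 to 7.24 CPM in the knockouts. The lymphocyte and neutrophil list summed to 156 CPM in control A, 38.3 to 52.9 CPM in the other controls and 58.9 to 131 CPM in the knockouts. Of its 20 tested genes none passed an unadjusted p of 0.05 with all controls, and 6 of the 17 tested without control A were higher (4.24% of all genes). Kupffer cell and macrophage genes summed to 1271 to 2235 CPM in controls and 1428 to 1922 CPM in knockouts, with 1 of 28 higher, and with 4 higher without control A (3.81% and 4.24% of all genes). The immediate early list held 5 lower members of 25, and 3 without control A (5.99% and 4.78% of all genes). Its Dusp1, a phosphatase of MAP kinases, was at 12.3 to 30.3 CPM in controls and 11.02 to 14.1 CPM in knockouts (-0.69 ± 0.21). The part of these other cell types in any gene's difference was not tested.

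Endothelial markers, Plvap included, had 3 of 35 higher and 2 lower at an unadjusted p under 0.05, shares of 8.57% and 5.71% against 3.81% and 5.99% of all genes, and 2 and 3 without control A. They had a summed level of 532 to 637 CPM in controls and 552 to 609 CPM in knockouts. Lyve1, the hyaluronan receptor of sinusoidal endothelium, was at 15.6, 9.27, 10.7, 9.90 and 6.99 CPM in controls and 15.5, 21.3, 19.3 and 15.98 CPM in knockouts (0.78 ± 0.22, adjusted p 0.314, and 0.97 ± 0.21 with 0.148 without control A). Blood cell genes, 8 tested, all had fold changes above 0, with summed levels of 331 to 518 CPM in controls and 434 to 814 CPM in knockouts, and their part in the results was not tested. Of 23 pancreas genes 15 had no count in any of the 9 libraries, and their summed level was at most 2.02 CPM. The list of muscle, adipose and other tissue summed to 53.2 CPM in control A and 50.3 CPM in knockout B. In the other libraries it summed to 4.37 to 10.2 CPM. The part of other tissue in any gene's difference was not tested. Ribosomal protein genes had 10 of 84 higher and none lower at an unadjusted p under 0.05, and 14 and none without control A (3.81% and 4.24% of all genes higher), with a median of 0.13. Rpl39, a large subunit protein, was at 127 to 193 CPM in controls and 207 to 240 CPM in knockouts. Across all genes the log2 fold change had a Spearman correlation of -0.15 with gene length, over genes that share the same 9 libraries.

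The male-biased targets of growth hormone held 7 higher and 2 lower of 38 at an unadjusted p under 0.05 (3.81% and 5.99% of all genes) with a median of 0.26. Without control A, in which the summed level was the lowest, they held 5 and 1 (4.24% and 4.78%) with a median of 0.12. Hsd3b5, a male-specific steroid dehydrogenase, was at 63.1 CPM in control A, 101 to 250 CPM in the other controls and 202 to 462 CPM in knockouts (0.93 ± 0.32). No member of this list separated the groups on the higher side, and 2 did on the lower (1.46% and 1.67% of all genes). The median of the list was -0.30 on chow fasted, -0.11 on high-fat diet and 0.07 on chow refed. Periportal genes held 5 lower and no higher members of 31 (5.99% and 3.81% of all genes), and 3 lower and 2 higher without control A. Agxt, which detoxifies glyoxylate, was at 395 to 755 CPM in controls and 356 to 453 CPM in knockouts (-0.65 ± 0.19, unadjusted p 0.00216), with control B among the knockouts. Ass1, a urea cycle enzyme, was at 1730, 819, 1702, 1511 and 1619 CPM in controls and 1346, 962.1, 912 and 847 CPM in knockouts (-0.54 ± 0.23), where again control B was low.

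**Figure D4:**
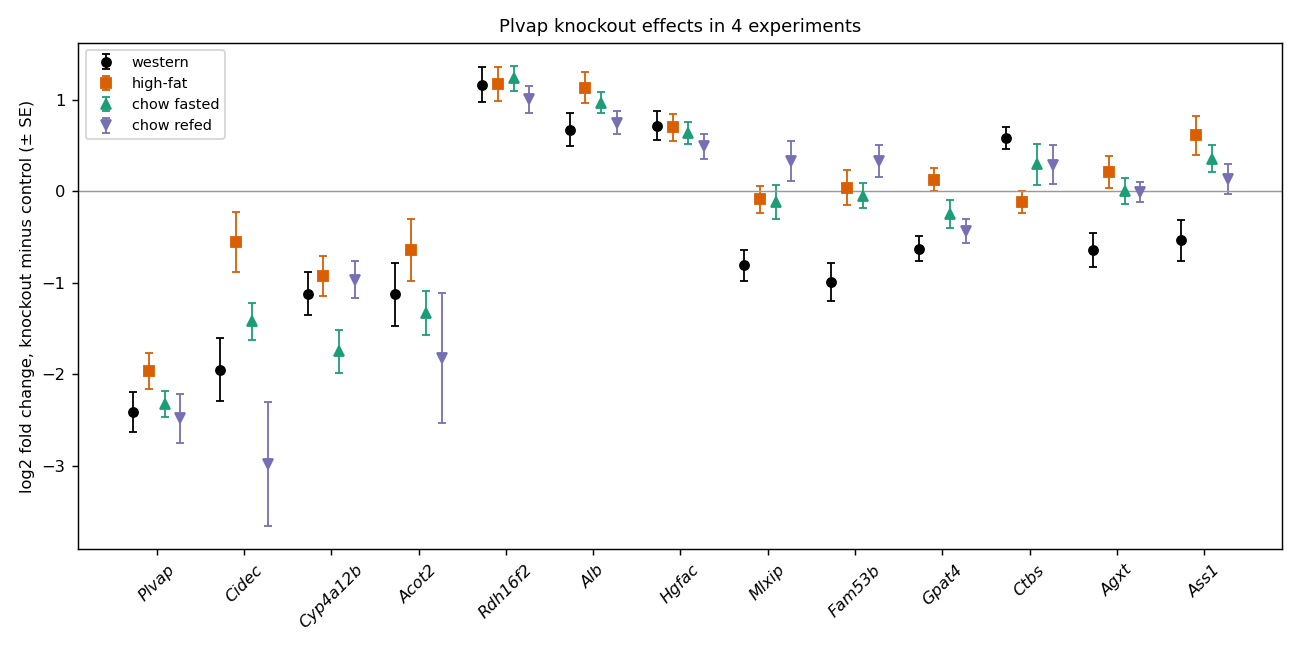
Log2 fold change of 13 genes, knockout minus control with SE (y axis), in the western, high-fat, chow fasted and chow refed experiments. Plvap, Cyp4a12b, Rdh16f2, Alb and Hgfac have the same sign in all 4, while Mlxip, Fam53b and Agxt are lower on western diet and near 0 in the fasted chow and high-fat livers.

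The chow fasted experiment shares no sample with the western one, and the genes it called were read in the western livers. Chow called 1.13% of its tested genes higher and 1.12% lower. Of 144 called higher and tested on western diet, 129 also had fold changes above 0 on western diet, 44 at an unadjusted p under 0.05, with a median of 0.28 against 0.59 on chow. Of 143 called lower, with Plvap left out, 131 were below 0, 52 at an unadjusted p under 0.05, with a median of -0.35 against -0.64 on chow. The genes were picked by their chow values, so a median nearer 0 on western diet follows in part from the choice. Over all genes tested on western diet, 46.2% had fold changes above 0, and 3.81% were higher and 5.99% lower at an unadjusted p under 0.05. Without control A the same direction was seen for 137 and 136 genes. The western groups did not overlap for 20 of the higher and 19 of the lower genes (1.46% and 1.67% of all genes). Besides Rdh16f2 and Cidec, they included Npnt, the integrin ligand nephronectin (-2.04 on western and -1.99 on chow), and Tff3, a secreted trefoil peptide (2.22 and 3.27), both named after their values were seen.

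**Figure D5:**
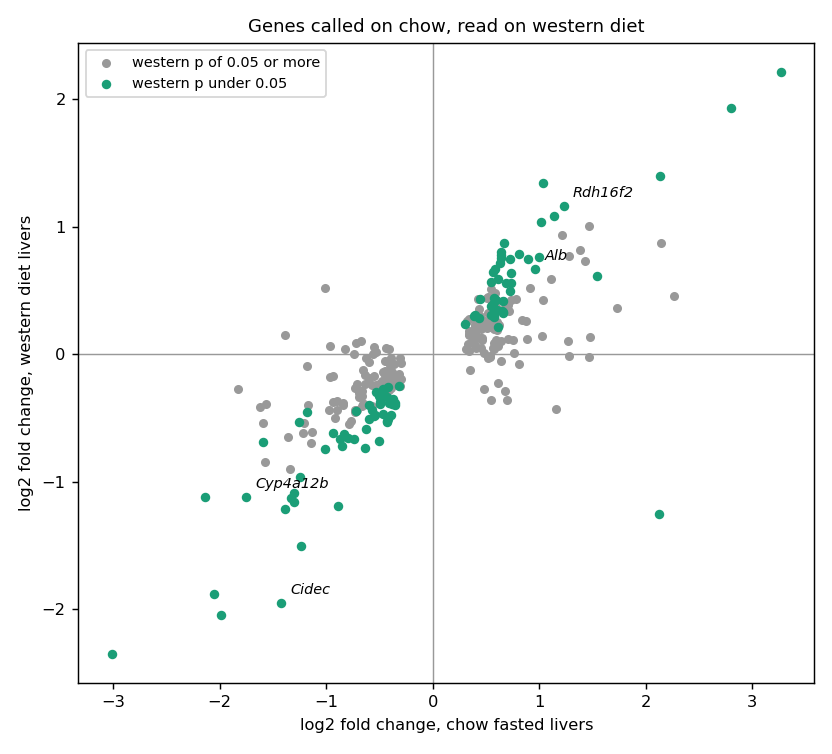
Log2 fold change on western diet (y axis) against that on chow fasted (x axis) for the 287 genes called on chow and tested on western diet, Plvap left out; green points have an unadjusted western p under 0.05. Most points lie at the lower left and the upper right, with a median fold change that is nearer 0 on western diet than on chow, the experiment by which the genes were picked.

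The high-fat experiment, whose libraries shared the fit, called 38 genes (0.281%). Of its 27 higher genes 21, and of its 10 lower genes besides Plvap 7, had the same sign on western diet, 6 and 3 of them at an unadjusted p under 0.05. Their medians were 0.13 on western against 0.70 on high-fat diet, and -0.27 against -0.87. The difference between the diets had an unadjusted p under 0.05 for 20 of the 27 and 5 of the 10. These genes were picked by their high-fat values, which also enter that difference. The counts and the smaller western medians therefore follow in part from the choice and cannot show that the effects differ by diet. Over all genes, the western fold changes had a Spearman correlation of 0.03 with those on high-fat diet and 0.43 with those on chow fasted (0.14 and 0.50 without control A). No gene passed in the test of the western effect minus the high-fat effect (0 of 13533 by edgeR, 1546 at an unadjusted p under 0.05, 11.4%, 0 by limma-voom and 56 by DESeq2, 0.454%). No gene passed for western minus chow either (0 of 14234 by edgeR, 437 at an unadjusted p under 0.05, 3.07%, 0 by limma-voom and 2 by DESeq2, 0.00537%). For the genes lower on western diet only in value, these differences were -1.03 ± 0.29 against high-fat (unadjusted p 0.0016) and -0.94 against chow (unadjusted p 0.000824) for Fam53b, and -0.72 ± 0.22 and -0.69 for Mlxip. Both genes were named for their small western p, and the western values enter these differences. The differences are therefore not independent of the choice and cannot show an effect particular to western diet. For the genes shared in value, the difference between western and chow was -0.06 for Rdh16f2 and 0.08 for Hgfac.

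Within 1 Mb of Plvap, 1 of 55 tested genes was higher and 2 lower at an unadjusted p under 0.05 (3.81% and 5.99% of all genes), and within 1 Mb of Rdh16f2 1 of 80 was higher and 8 lower. Near Plvap, the higher gene was Gtpbp3 (0.43 ± 0.15) and the lower ones were Slc27a1 (-0.58 ± 0.17) and Gm3336 (-0.92 ± 0.35). Within 1 Mb of Lrat, the source of the transgene's promoter, 3 of 11 were higher and none lower, a window of few genes. They were Fgb, a fibrinogen chain (0.45 ± 0.20), the protease gene Ctso (0.25 ± 0.10) and Rbm46, an RNA-binding protein of the germ line. Rbm46, which was picked for its value, was at 0.0747 to 0.303 CPM in controls and 0.391, 0.913, 0.707 and 1.15 CPM in knockouts (2.09 ± 0.46, adjusted p 0.163).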

How the data were processed

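Bulk liver RNA-seq was deposited as raw read counts per gene, which the authors made with STAR 2.7.8a and featureCounts 2.0 on GRCm39, with FastQC 0.11.9 and MultiQC 1.10.1 listed as quality tools, per the submitters' processing notes. The annotation release and strand setting are not given in the sources used here. The deposited tables also hold a gene length per gene, used only for the length correlation. Each table has 55416 genes, and 0.567% of the western counts fell in genes without a symbol. Libraries were prepared with a NEBNext Ultra kit from total RNA, per the labels' protocols.

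Genes were kept with edgeR's filterByExpr at a minimum count of 10, scaled by the trimmed mean of M-values and fitted with the quasi-likelihood test over the western and high-fat libraries, which share 1 estimate of the spread. P-values were adjusted by Benjamini-Hochberg over all genes tested. The chow and refed experiments, and western minus chow, were fitted from their own tables or a joined one. Tools were R 4.3.3, edgeR 4.0.16, limma 3.58.1 and DESeq2 1.42.0, and the fits were tested on simulated data. The members and gene lists were chosen with earlier results of these data known, so no list's direction is independent evidence. Named genes were the target, the called genes, the 15 with the smallest p in each direction among genes other than predicted ones with a group mean of at least 1 CPM, and up to 4 per list with an unadjusted p under 0.05. A few genes are not reported here. Other genes are given as members of a list or are said to be picked after their values were seen. Alternatives were other scalings, filters and tools, the western libraries alone, a block for the replicate letter and leaving out each library. The labels do not say whether replicate letters pair the samples, and the main fit did not treat them as pairs.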

Additional observations from a re-analysis of the deposited data

Results flagged for a closer look

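In 23 cases the highest or lowest library of a group stood far from the other libraries of that group, out of 240 groups of 120 named genes. The cutoff sets apart about 1 in 20 groups of independent, normally distributed values. The named genes were picked from these data and share the same libraries, so that rate is no measure for the 23 cases. Control A accounted for 12 of them. In the controls its values were the highest for Gsr (74.0 CPM), Ntrk2 (4.30 CPM), Stat2 (79.2 CPM), Mx1 (6.54 CPM), Ifi44 (46.5 CPM), Oas1g (16.6 CPM), Nr4a1 (8.29 CPM), Star (24.9 CPM) and Bgn (111 CPM), and the lowest for Cpt2 (210 CPM), Acot1 (112 CPM) and Ugt2a3 (202 CPM). Control B was the lowest for Ass1 (819 CPM) and control D the highest for Rpl22l1 (79.1 CPM).

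Knockout B was the highest knockout for Arhgap26 (31.3 CPM), Ednrb (33.2 CPM), Ntrk2 (0.717 CPM), Sc5d (326 CPM) and Mylpf (5.15 CPM). Knockout D was the highest for Cpd (41.4 CPM) and Nr4a2 (1.49 CPM) and knockout C for Cux2 (1.35 CPM) and Adamtsl2 (5.46 CPM).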

How the results depend on the processing

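The western comparison called 2 genes, and 2 under DESeq2 size factors or a filter at 1 CPM. It called 10 without a filter, 21 with DESeq2, 15 with limma-voom, 1 from only the western libraries, 1 with a replicate block and 1 to 5 with any 1 library left out. The genes called without control A included Plvap, Rdh16f2, Lhpp and Tmem189. Rdh16f2 was not called from the western libraries alone (adjusted p 0.359) or with the replicate block (adjusted p 0.113). For controls and knockouts of the same letter, the correlations of their deviations were between -0.26 and 0.16. With 4 such letters and no litter given, these correlations cannot show whether the letters pair the samples. The test of western minus high-fat called 0 genes, 10 without a filter, 56 with DESeq2 and 0 to 1 with any 1 library left out, and western minus chow called 0, 2 with DESeq2 and 0 to 1 with any 1 library left out. Ifi44 ranged from -1.49 to 0.051 and Oas1g from -1.69 to 0.015 over the fits without 1 library, above 0 without control A. Mylpf ranged from -0.058 to 1.59, below 0 without knockout B. Of the other values for single named genes, 1887 kept their direction and side of the threshold, 37 came to pass it and 9 no longer passed. The cause of these shifts was not tested. Depth and 4 against 5 libraries limit what low genes such as Rbm46 and Cdh4 can show.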

Other observations

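Oat, Lhpp and Fam53b, the 3 tested genes in a span of 0.256 Mb on chromosome 7 (132159207 to 132415615 in GRCm39), were all lower in value in the knockouts. Oat, the ornithine aminotransferase of pericentral hepatocytes, was at 698 to 2008 CPM in controls and 751 to 890 CPM in knockouts (-0.73 ± 0.23), and its low control was control A. Fam53b, at 8.57 to 14.6 CPM in controls and 4.94 to 7.43 CPM in knockouts (-0.99 ± 0.21), did not overlap. On chow fasted the log2 fold changes were -0.64 for Oat, -0.50 for Lhpp and -0.05 for Fam53b. The 3 genes were picked after their values were seen.

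Enho, which encodes the secreted peptide adropin, was at 24.3, 20.3, 20.3, 11.9 and 37.3 CPM in controls and 95.7, 31.9, 42.4 and 65.99 CPM in knockouts (1.36 ± 0.37, adjusted p 0.314). Knockout B lay below control E, and the other knockouts lay above every control. Krt23, a keratin of the bile duct list, was at 4.66 to 13.8 CPM in controls and 0.783 to 4.56 CPM in knockouts (-1.56 ± 0.64, unadjusted p 0.0267), while the 11 tested genes of that list had a median of 0.13. Tspan4, a tetraspanin, was at 47.9 to 66.2 CPM in controls and 69.8 to 98.6 CPM in knockouts (0.64 ± 0.17, adjusted p 0.308).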
